A study of Mus musculus with 6 samples.

Results

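The 34 genes described here act in the G2 phase of the cell cycle and in mitosis. They are the mitotic cyclin-dependent kinase with its cyclins, the mitotic and checkpoint kinases, and genes of the kinetochore, spindle, ubiquitin-dependent exit and chromosome structure. They were taken from the table by name and not by a limit on their values, but the list was chosen with earlier results of these data known. All 34 were found among the 15599 genes with a read in at least 1 library. All 34 also passed the filter on low values, a level of at least 1 in at least 3 libraries, which 12008 genes passed.

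The series used RNA sequencing to compare 2 genotypes of long-term haematopoietic stem cells, or LT-HSC, of the mouse. LT-HSC are the rare bone marrow cells that can renew the whole blood system after transplantation, and here they were sorted as lineage-depleted LSK CD34-CD150+CD48-Flk2- cells, where LSK stands for cells positive for Sca-1 and Kit. The Itpkb-/- group (spelled IPTKB-/- in the labels) carried an allele that the labels give as ENU-induced Ms T-less, and the wild-type group were littermates. All mice had a C57BL/6 background and were age-matched. Each genotype had 3 libraries, and each library was a pool of 4 mice, so p-values measure the spread between pools. Itpkb encodes a kinase that phosphorylates inositol trisphosphate. ENU is a chemical mutagen, and the labels name no promoter or driver that would limit the allele to a cell type.

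As background, cells that prepare to divide accumulate the transcripts of these genes from late S phase onwards and lose many of the proteins as they leave mitosis. Cyclin B and Cdk1 start mitosis, the kinetochore and spindle genes attach and move the chromosomes, and an ubiquitin ligase, the anaphase promoting complex, ends it. LT-HSC are known to be mostly quiescent, so that transcripts of this kind come mainly from the cells of the population that are cycling. Many of the genes share promoter elements named CHR and CCAAT box. Through the CHR the DREAM complex represses such genes in quiescent cells, and B-Myb and FoxM1 activate them in G2. The CCAAT box is the site of the activator NF-Y.

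Values are normalized CPM, which are gene counts scaled by the authors to library size (CPM stands for counts per 1000000), with 1 factor per library. They are given in the order of libraries 1, 2 and 3 of each genotype. The libraries held 4024203 to 7470329 reads and 1 read was worth 0.131 to 0.249 normalized CPM. The least abundant member reading was 16 reads, so none lay near the detection floor of 3 reads, which covers counting error only. Itpkb itself was measured at 10.2, 13.99 and 18.2 normalized CPM across Itpkb-/- libraries 1 to 3 and 22.1, 23.6 and 25.1 across the wild-type ones (log2 difference -0.73, adjusted p = 0.172, and 0.0541 with the replicate block), and a transcript level checks such an allele only in part. All 14 LT-HSC markers were detected, at a summed level of 2259 to 3045 in Itpkb-/- and 3565 to 4209.6 in wild type. The summed markers of multipotent progenitors (7 of 7 genes, among them those of CD34, CD48 and Flk2, for which sorted cells were negative) were at 519.6 to 797 against 256 to 351. Neither sum overlapped between genotypes. Within the progenitor list Plac8 (183 to 369 against 38.5 to 76.6) and Cd53 (81.8 to 128 against 18.8 to 28.3) were far apart, while Cd34 (204 to 220.2 against 172 to 204) nearly met and Cd48 (7.08 to 33.3 against 4.65 to 13.6) and Flt3, the gene of Flk2 (22.9 to 37.9 against 7.21 to 31.5), overlapped. Those of granulocytes (19 of 20 genes in the table) were at 1041 to 19135 against 831 to 4031. The highest granulocyte sum was that of Itpkb-/- library 2, in which Mpo, the neutrophil myeloperoxidase gene, reached 8728 against 588 and 88.5 in the other Itpkb-/- libraries. The granulocyte sum of Itpkb-/- library 1, 6999.9, also lay above those of all wild-type libraries, but its make-up differed. Its S100a8 and S100a9 (2132 and 2003) were nearer those of Itpkb-/- library 2 (2232 and 2759). Its Mpo and Elane (588 and 95.6) lay below wild-type library 2 (817 and 143), against 8728 and 1303 in Itpkb-/- library 2. Its Ctsg, Ms4a3 and Prtn3 (56.8, 20.04 and 222) lay above all wild-type libraries and far below Itpkb-/- library 2 (620, 175 and 1192). Results are also given without Itpkb-/- library 2, which leaves the high granulocyte sum of library 1 in place. Megakaryocyte markers (10 genes) were at 1539 to 2653 against 1132 to 1254, and erythroid markers (17 genes) at 775 to 1454 against 1176 to 1689.5. Monocyte, macrophage and dendritic markers (11 of 12 genes in the table) were at 297 to 940.1 against 423 to 639, and T and NK cell markers (9 genes) at 99.3 to 291 against 72.6 to 119. Most of the T and NK cell sum was the single gene Nkg7 (86.6 to 278 against 55.7 to 106). B-cell markers (8 genes) were at 31.9 to 36.8 against 30.6 to 38.8 and those of stroma and endothelium (7 genes) at 72.97 to 102 against 87.7 to 98.2. Most of the B-cell sum was the single gene Cd79b (30.01 to 32.8 against 28.2 to 34.8). Pax5, Cd3g, Cd8a and Lepr were at 0 in all libraries. The part of these cell types in the results below was not tested.

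The G2 and mitosis genes had higher mean levels in Itpkb-/- LT-HSC than in wild type. All 34 log2 differences were positive (33 with no composition factor in the scaling, where Ttk was below 0), with a median of 0.58 and a range from 0.0057 (Ttk) to 0.88 (Cenpe), while the median over all 12008 genes was 0.0018. Of the 34, 4 passed the test (limma, called where the adjusted p was 0.15 or less, which is the limit in the series design text), namely Cdk1, Ccnb1, Cenpa and Kif11, against a background of 2.27% of all tested genes called higher. None was called lower, against a background of 3.24%. At an unadjusted p under 0.05, 19 members were higher and 0 lower, against 7.13% and 8.34% of all genes. The edgeR quasi-likelihood test on recovered reads called 6 higher (background 2.45%) and 0 lower, adding Bub1b and Kif2c, and DESeq2 called 11 higher (background 3.24%) and 0 lower. Because these are bulk libraries, a larger share of cycling cells and more of these transcripts in each cycling cell cannot be told apart.

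The libraries carry the numbers 1 to 3 in both genotypes, and libraries of the same number deviated from their genotype means together. With the replicate number as a block, 28 of the 34 members passed as higher and 0 as lower, against 9.15% of all genes called higher in that fit. The 6 that did not pass with the block were Ccnb2, Aurka, Ttk, Ndc80, Ube2c and Smc4. Within same-numbered pairs, 29 members were higher in Itpkb-/- in all 3 pairs (background 21.8%), and the members' median log2 difference was 0.44 in pair 1, 0.75 in pair 2 and 0.44 in pair 3. For 12 members every Itpkb-/- library lay above every wild-type library, against 10.0% of all genes. Without Itpkb-/- library 2, which had the highest granulocyte sum, the members' median was 0.34. In that limma fit 0 members were called, against 0.958% of all genes called higher. At an unadjusted p under 0.05, 7 members were higher there. In that fit 31 of the 34 differences were still positive. With the block and without both libraries numbered 2, a setting chosen after the data were seen, 15 members passed as higher (background 6.51%). Leaving out other libraries moved the number called as well. It was 20 without Itpkb-/- library 1 (background 3.17%) and 3 without Itpkb-/- library 3 (2.64%). It was 1 without wild-type library 1 (1.17%), 0 without wild-type library 2 (1.02%) and 0 without wild-type library 3 (0.308%). At an unadjusted p under 0.05, 15 members were higher without wild-type library 2 and 17 without wild-type library 3. The 21.8% and 10.0% are shares of all genes by direction in the pairs and by lack of overlap. The other backgrounds here are shares called at the adjusted limit. The share of all genes at an unadjusted p under 0.05 is not given for these fits, so their unadjusted counts have no background to be read against.

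**Figure D1:**
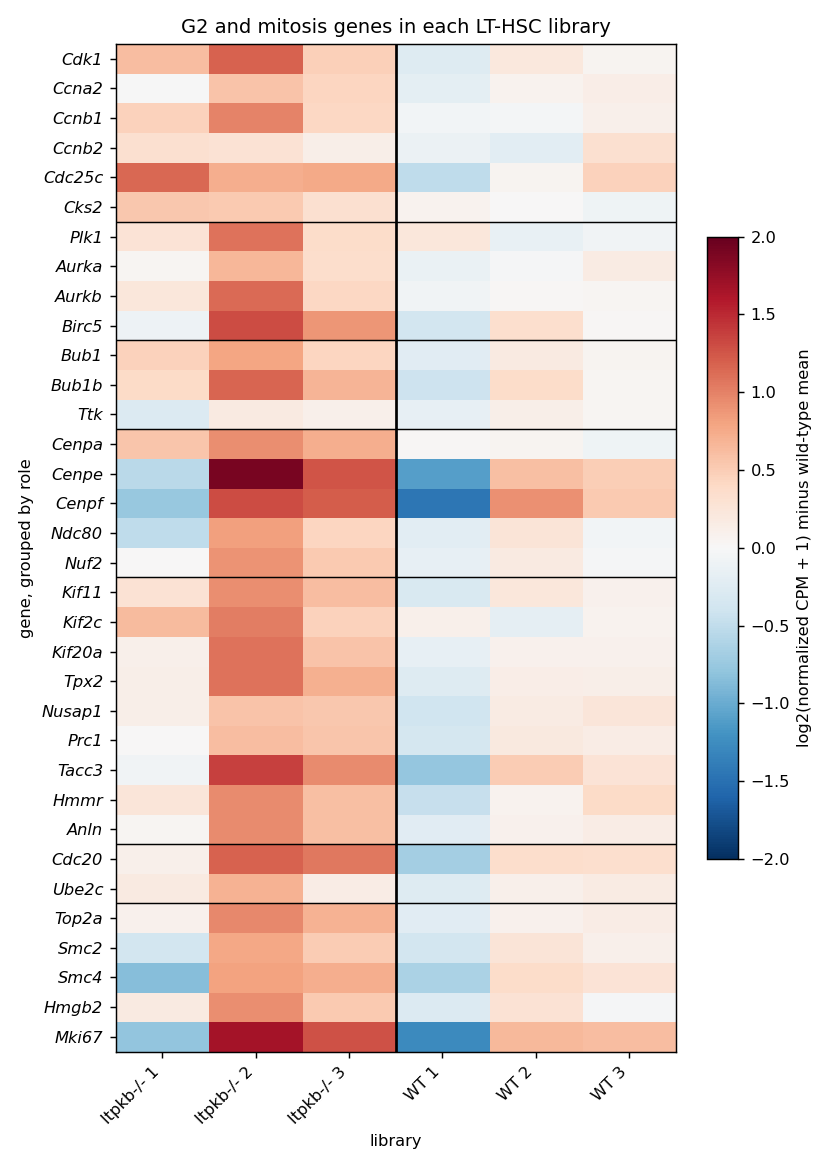
Each row is 1 of the 34 genes, grouped by role, and each column 1 library; colour gives log2(normalized CPM + 1) minus the gene's wild-type mean. Itpkb-/- library 2 was the highest for most genes, and library 1 was low in both genotypes for Mki67, Cenpf, Cenpe and Smc4.

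Summarised over members, the median distance from the wild-type mean on the log2 scale was 0.11, 0.94 and 0.54 in Itpkb-/- libraries 1, 2 and 3 and -0.26, 0.15 and 0.12 in the wild-type libraries. Itpkb-/- library 1 thus lay within the range of the wild-type libraries on this summary, between wild-type libraries 1 and 3, while Itpkb-/- libraries 2 and 3 lay above all 3. Over all tested genes the same summary lay between -0.0060 and 0.011.

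The 4 called members sit on 4 chromosomes of build mm10. Cdk1 is at chr10:69335146-69352938, minus strand, Ccnb1 at chr13:100778650-100786570, minus strand, Cenpa at chr5:30666777-30674830, plus strand and Kif11 at chr19:37376403-37421859, plus strand (GENCODE M21). Their promoters are printed because these are the members that passed the test, and because they show how the CHR element and the CCAAT box sit in genes of this kind. Each runs from 250 bases before to 50 bases after the RefSeq transcription start (RefSeq, GRCm38.p6, the assembly of mm10) and is written from 5′ to 3′ on the gene's strand. Capitals mark matches of the CHR (TTTGAA, or TTCAAA on the other strand) and of the CCAAT box (CCAAT, or ATTGG on the other strand). The windows are chr10:69352863-69353162, minus strand, for Cdk1; chr13:100786437-100786736, minus strand, for Ccnb1; chr5:30666636-30666935, plus strand, for Cenpa; and chr19:37376132-37376431, plus strand, for Kif11.
Cdk1: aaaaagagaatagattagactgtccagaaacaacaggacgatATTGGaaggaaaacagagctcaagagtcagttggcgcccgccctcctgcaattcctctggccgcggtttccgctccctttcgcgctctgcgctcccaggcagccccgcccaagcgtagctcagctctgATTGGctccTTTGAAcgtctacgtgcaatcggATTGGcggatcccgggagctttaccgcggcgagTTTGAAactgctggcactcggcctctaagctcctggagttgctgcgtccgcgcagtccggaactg
Ccnb1: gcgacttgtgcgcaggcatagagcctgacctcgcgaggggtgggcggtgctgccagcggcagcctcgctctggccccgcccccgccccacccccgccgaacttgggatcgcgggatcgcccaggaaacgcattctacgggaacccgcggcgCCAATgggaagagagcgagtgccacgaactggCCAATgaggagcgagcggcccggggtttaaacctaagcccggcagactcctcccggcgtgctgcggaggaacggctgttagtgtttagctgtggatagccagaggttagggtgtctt
Cenpa: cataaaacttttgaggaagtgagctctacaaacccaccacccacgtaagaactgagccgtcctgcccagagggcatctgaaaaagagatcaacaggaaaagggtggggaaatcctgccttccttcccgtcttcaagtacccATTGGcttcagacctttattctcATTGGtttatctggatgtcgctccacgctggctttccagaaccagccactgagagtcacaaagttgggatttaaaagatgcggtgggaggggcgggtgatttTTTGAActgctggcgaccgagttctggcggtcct
Kif11: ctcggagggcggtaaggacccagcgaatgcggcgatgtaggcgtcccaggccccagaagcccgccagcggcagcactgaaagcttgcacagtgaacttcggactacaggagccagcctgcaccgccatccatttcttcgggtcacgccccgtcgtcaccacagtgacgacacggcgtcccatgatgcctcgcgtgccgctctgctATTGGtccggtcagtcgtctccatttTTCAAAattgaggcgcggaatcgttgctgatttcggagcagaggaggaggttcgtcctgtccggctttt

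The Cdk1 window held 2 CHR matches, beginning at positions -71 and -15 from the start, and 3 CCAAT matches. In Cenpa 1 CHR match began at 17, after 2 CCAAT matches, and in Kif11 1 CHR match at -19 followed 1 CCAAT match at -45. The Ccnb1 window held CCAAT matches at -99 and -67 and no TTTGAA, which says only that these letters are not in the window. A match is a description of the letters and was not tested as a site of binding.

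The shared elements were common among the members. Of the 34, 28 had a promoter in the RefSeq table, and those of Tpx2, Aurkb, Ccna2, Kif20a, Cdc25c and Smc4 were not used here. The CHR letters were present in 20 of the 28 (71.4%), against 20.2% of the 27025 genes with a promoter and 14.2% of the 9021 tested genes with one. CCAAT was present in 21 of the 28 (75.0%), against 41.1% of all and 43.2% of tested genes. Both were present in 17 of the 28 (60.7%), against 7.97% and 5.79%. An E2F site, searched as TTTCCCGC, TTTGGCGC, TTTCGCGC or TTTGCCGC on both strands, was present in 1 member, Cdk1 (3.57%), against 2.60% of all and 4.80% of tested genes. Within 50 bases of the start, 18 of the 28 held a CHR match, against 5.72% of all genes with a promoter and 3.67% of tested genes. In the 150 bases before the start, 21 of the 28 held a CCAAT match, against 28.04% and 32.5%; both windows were set after the positions in the members were seen. The median GC content of the members' promoters, 60.7%, equalled that of the tested genes. The median log2 difference between genotypes was 0.58 over the 20 members with the CHR letters and 0.59 over the 8 without them, a difference that was not tested.

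**Figure D2:**
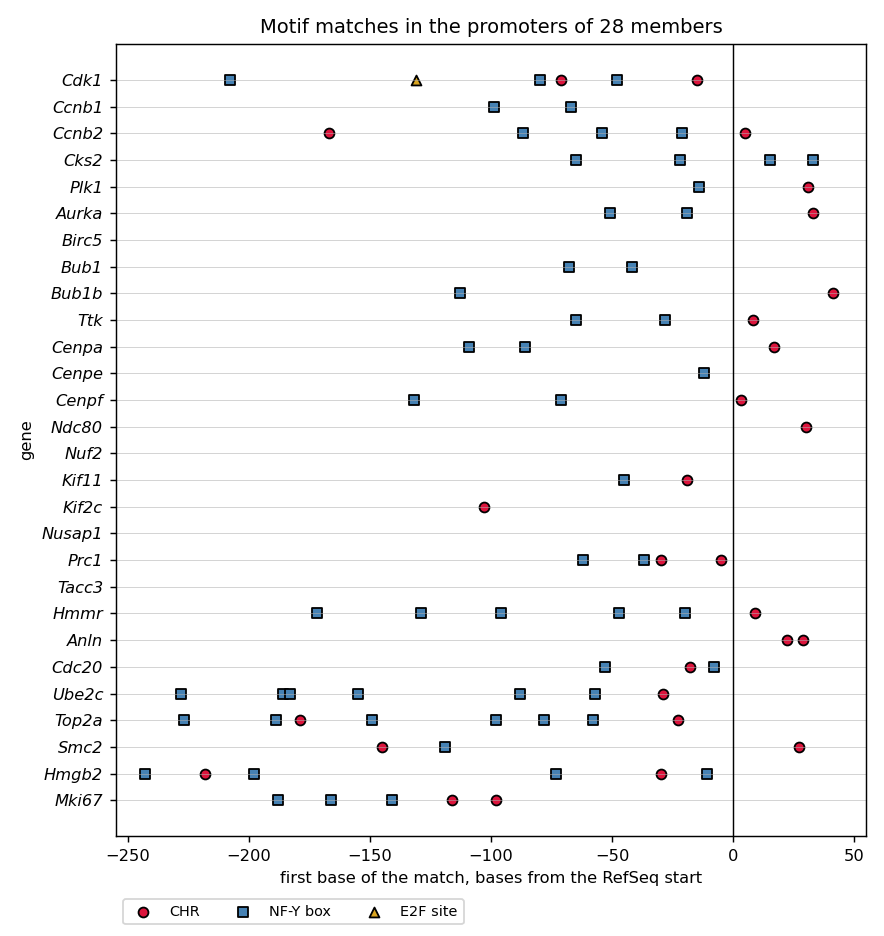
Positions of CHR, CCAAT box (labelled NF-Y box) and E2F matches in the promoters of the 28 members, in bases from the RefSeq start. Of the 20 members with a CHR match, 18 had one within 50 bases of the start, and all 21 members with a CCAAT match had one in the 150 bases before it.

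Among the kinase and cyclins of mitotic entry, 2 of 6 genes rose and the median log2 difference was 0.55. Cdk1, the kinase that drives cells into mitosis, was measured at 61.6, 91.7 and 55.7 normalized CPM across Itpkb-/- libraries 1 to 3 and 33.1, 46.2 and 41.5 across the wild-type ones. Every Itpkb-/- library lay above every wild-type library, and Itpkb-/- library 2 was the highest. The means were 69.7 ± 19.3 against 40.3 ± 6.64 normalized CPM (mean ± SD over 3 libraries each), a log2 difference of 0.76 (SE 0.21, limma, adjusted p = 0.113, and 0.00744 with the block). The call was kept without Itpkb-/- library 1 (0.111) or 3 (0.0848) and lost without Itpkb-/- library 2 (0.310) or wild-type library 1, 2 or 3 (0.289, 0.168 and 0.310). Ccnb1, cyclin B1, the partner of Cdk1 at mitotic entry, was at 60.99, 88.4 and 58.98 normalized CPM across Itpkb-/- libraries 1 to 3 and 42.03, 42.4 and 47.3 across the wild-type ones. The groups did not overlap, and 2 of the 3 Itpkb-/- libraries lay close together below library 2. The means were 69.5 ± 16.4 against 43.9 ± 2.92 normalized CPM (mean ± SD over 3 libraries each), a log2 difference of 0.63 (SE 0.18, adjusted p = 0.127, and 0.0241 with the block). This call was lost without Itpkb-/- library 2 (0.350) and without wild-type library 1, 2 or 3 (0.279, 0.259 and 0.305). A processed pseudogene, Ccnb1-ps, can share reads with Ccnb1, and Ccnb2-ps with Ccnb2, so both levels are uncertain to that degree.

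The other 4 genes of mitotic entry did not pass the test. Cdc25c, the phosphatase that removes inhibitory phosphates from Cdk1, was the least abundant member, at 14.8, 10.7 and 11.01 normalized CPM across Itpkb-/- libraries 1 to 3 and 3.98, 6.43 and 8.75 across the wild-type ones. Its groups did not overlap, and its highest library was Itpkb-/- library 1, unlike most members (log2 difference 0.88, SE 0.31, adjusted p = 0.204, and 0.102 with the block). Cks2, a small subunit that binds Cdk1, was at 51.4, 50.7 and 44.04 in Itpkb-/- and 36.8, 35.1 and 32.9 in wild type. Its libraries were close within each genotype and did not overlap (log2 difference 0.47, SE 0.16, adjusted p = 0.188, and 0.0741 with the block). Ccna2, cyclin A2, which acts in S and G2 phase, was at 120.02, 179 and 161 in Itpkb-/- and 105, 126 and 131 in wild type. Its Itpkb-/- library 1 lay between the wild-type libraries (log2 difference 0.33, SE 0.17, adjusted p = 0.376, and 0.0759 with the block). Ccnb2, cyclin B2, was at 88.7, 87.02 and 76.7 in Itpkb-/- and 65.4, 61.4 and 88.98 in wild type. Wild-type library 3 was its highest value, so the groups overlapped and pair 3 had the opposite sign (log2 difference 0.24, SE 0.17, adjusted p = 0.548, and 0.363 with the block).

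The mitotic kinases, counted here with Birc5, which is not itself a kinase, had a median log2 difference of 0.58. Of these 4 genes, 0 passed the test with limma or edgeR (3 of 4 at an unadjusted p under 0.05 in either). With DESeq2 2 passed and with the block 3, Birc5 among them in both. Plk1, polo-like kinase 1, which acts from mitotic entry to cytokinesis, was at 32.2, 57.2 and 34.6 normalized CPM across Itpkb-/- libraries 1 to 3 and 31.1, 23.8 and 25.3 across the wild-type ones. Itpkb-/- library 2 stood well above the other 5 libraries, and Itpkb-/- library 1 only just above wild-type library 1 (log2 difference 0.57, SE 0.23, adjusted p = 0.271, and 0.110 with the block). Aurkb, the kinase of the chromosomal passenger complex that corrects faulty spindle attachments, was at 37.9, 71.6 and 43.5 in Itpkb-/- and 30.8, 32.7 and 33.3 in wild type. The wild-type libraries were nearly equal and all lay below the Itpkb-/- libraries, of which library 2 was the highest (log2 difference 0.59, SE 0.23, adjusted p = 0.241, and 0.0565 with the block). Birc5, or survivin, a subunit of the same complex, was at 37.2, 99.6 and 74.4 in Itpkb-/- and 30.8, 50.7 and 40.6 in wild type. Its Itpkb-/- library 1 lay below wild-type libraries 2 and 3, although each Itpkb-/- library exceeded the wild-type library of its number (log2 difference 0.70, SE 0.31, adjusted p = 0.317, and 0.0164 with the block). Aurka, which matures centrosomes and spindle poles, was at 17.6, 27.7 and 22.02 in Itpkb-/- and 15.4, 16.9 and 19.2 in wild type. The groups overlapped, and it passed neither fit (log2 difference 0.35, SE 0.23, adjusted p = 0.512, and 0.362 with the block).

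Bub1, Bub1b and Ttk, genes of the spindle assembly checkpoint, which delays anaphase until all chromosomes are attached, differed among themselves. With limma 0 of 3 passed (2 at an unadjusted p under 0.05), with edgeR 1, with DESeq2 1 and with the block 2. Bub1b was at 69.05, 119.7 and 84.5 normalized CPM across Itpkb-/- libraries 1 to 3 and 39.3, 68.2 and 54.2 across the wild-type ones. Its groups did not overlap, and its 3 pairs differed by 0.80, 0.80 and 0.63 on the log2 scale. It missed the limit narrowly with limma and passed with the block and with edgeR (log2 difference 0.74, SE 0.24, adjusted p = 0.154, 0.00259 with the block, and 0.144 with edgeR). Bub1 was at 41.8, 53.3 and 41.3 in Itpkb-/- and 25.6, 34.4 and 31.5 in wild type. All Itpkb-/- libraries lay above all wild-type libraries (log2 difference 0.56, SE 0.19, adjusted p = 0.177, and 0.0448 with the block). Ttk, or Mps1, which starts checkpoint signalling at unattached kinetochores, was at 22.9, 31.5 and 29.9 in Itpkb-/- and 24.6, 30.2 and 28.7 in wild type. Its libraries overlapped throughout, and it had the smallest difference of the 34, with a 95% interval from -0.43 to 0.44 on the log2 scale (log2 difference 0.0057, SE 0.20, adjusted p = 0.993, and 0.990 with the block). Its log2 difference was below 0 when Itpkb-/- library 2 or 3 or wild-type library 1 was left out.

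Of the 5 centromere and kinetochore genes 1 rose, and their median log2 difference was 0.59. Cenpa, the histone H3 variant that marks centromeres, was at 42.04, 54.9 and 47.6 normalized CPM across Itpkb-/- libraries 1 to 3 and 28.8, 29.3 and 26.6 across the wild-type ones. Its libraries were tight within each genotype and far apart between them. The means were 48.2 ± 6.43 against 28.3 ± 1.43 normalized CPM (mean ± SD over 3 libraries each), a log2 difference of 0.74 (SE 0.17, limma, adjusted p = 0.0642, and 0.0127 with the block), the smallest adjusted p of the 34. The call was nevertheless lost without Itpkb-/- library 2 (0.210) or wild-type library 2 (0.153) or 3 (0.265). Nuf2 and Ndc80 encode parts of the complex that grips microtubules at the kinetochore. Nuf2 was at 31.8, 59.4 and 45.6 in Itpkb-/- and 28.1, 36.02 and 30.9 in wild type. Its Itpkb-/- library 1 lay within the wild-type range (log2 difference 0.47, SE 0.23, adjusted p = 0.351, and 0.0984 with the block). Ndc80 was at 16.1, 41.96 and 31.98 in Itpkb-/- and 20.1, 28.2 and 22.5 in wild type. Its Itpkb-/- library 1 was the lowest of all 6, and it passed neither fit (log2 difference 0.25, SE 0.31, adjusted p = 0.765, and 0.542 with the block).

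Cenpe, a kinetochore motor that brings chromosomes to the spindle equator, and Cenpf, a large kinetochore protein, varied more between libraries than their genotype means differed. Cenpe was at 18.1, 102 and 65.4 normalized CPM across Itpkb-/- libraries 1 to 3 and 11.9, 40.8 and 37.98 across the wild-type ones. Cenpf was at 22.7, 98.2 and 91.2 normalized CPM across Itpkb-/- libraries 1 to 3 and 13.7, 74.4 and 56.6 across the wild-type ones. In both genes library 1 was the lowest of its genotype by a wide margin, and each Itpkb-/- library exceeded the wild-type library of the same number. Cenpe did not pass without the block (log2 difference 0.88, SE 0.57, adjusted p = 0.513, and 0.00802 with the block). Cenpf did not either (log2 difference 0.59, SE 0.62, adjusted p = 0.711, and 0.0239 with the block), and its log2 difference was -0.13 without wild-type library 1.

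**Figure D3:**
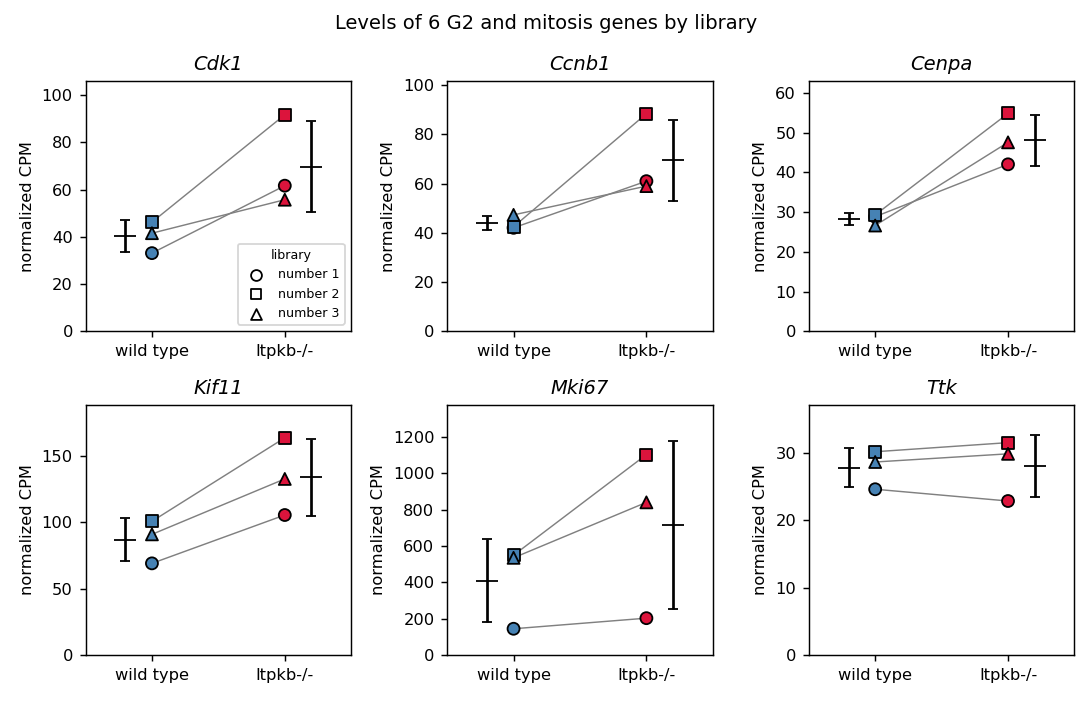
Normalized CPM of Cdk1, Ccnb1, Cenpa, Kif11, Mki67 and Ttk in the 6 libraries; lines join libraries of the same number, and bars beside the points give the mean ± SD of 3 libraries. The groups did not overlap in Cdk1, Ccnb1, Cenpa and Kif11, overlapped in Ttk, and in Mki67 library 1 was the lowest of each genotype.

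All 9 genes of motors and spindle factors passed with the block, and their median log2 difference was 0.59. Without the block limma called 1, Kif11 (6 of 9 at an unadjusted p under 0.05), edgeR called Kif11 and Kif2c, and DESeq2 called Kif11, Kif2c and Tpx2. Kif11, the kinesin that pushes the spindle poles apart, was at 106, 164 and 133 normalized CPM across Itpkb-/- libraries 1 to 3 and 69.1, 101 and 91.03 across the wild-type ones. The groups did not overlap, and the 3 pairs differed by nearly the same amount, 0.60, 0.70 and 0.54 on the log2 scale. The means were 134 ± 29.2 against 87.02 ± 16.3 normalized CPM (mean ± SD over 3 libraries each), a log2 difference of 0.61 (SE 0.19, adjusted p = 0.1485, and 0.00364 with the block). Its call was kept only without Itpkb-/- library 1 (0.0732) and lost without Itpkb-/- library 2 (0.381) or 3 (0.215) and without wild-type library 1, 2 or 3 (0.370, 0.189 and 0.347). Kif2c, a kinesin that depolymerises microtubules at centromeres, was at 20.9, 27.8 and 18.3 in Itpkb-/- and 14.2, 11.5 and 13.8 in wild type. The groups did not overlap, and the wild-type libraries were close to each other (log2 difference 0.71, SE 0.23, adjusted p = 0.172, and 0.0806 with the block). Kif20a, a kinesin of the central spindle needed for cytokinesis, was at 20.5, 41.5 and 28.8 in Itpkb-/- and 16.9, 20.3 and 20.3 in wild type. Its Itpkb-/- library 1 lay only just above the highest wild-type library (log2 difference 0.58, SE 0.26, adjusted p = 0.304, and 0.100 with the block).

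Tpx2, which nucleates spindle microtubules and activates Aurora A, was at 66.2, 132 and 101 normalized CPM across Itpkb-/- libraries 1 to 3 and 51.2, 67.3 and 66.8 across the wild-type ones. Itpkb-/- libraries 2 and 3 lay well above all others and library 1 within the wild-type range (log2 difference 0.64, SE 0.23, adjusted p = 0.205, and 0.0109 with the block). Tacc3, which stabilises spindle microtubules, was at 18.9, 52.99 and 39.3 in Itpkb-/- and 11.2, 28.5 and 24.2 in wild type. It showed the same order, with library 1 the lowest of each genotype (log2 difference 0.75, SE 0.39, adjusted p = 0.393, and 0.0217 with the block). Hmmr, a factor of spindle pole assembly, was at 36.4, 60.3 and 47.05 in Itpkb-/- and 22.1, 32.3 and 40.6 in wild type, with overlap of Itpkb-/- library 1 and wild-type library 3 (log2 difference 0.59, SE 0.25, adjusted p = 0.283, and 0.0467 with the block). Anln, or anillin, the scaffold of the contractile ring, was at 48.1, 91.99 and 71.95 in Itpkb-/- and 40.04, 49.8 and 52.3 in wild type. Its Itpkb-/- library 1 lay within the wild-type range (log2 difference 0.53, SE 0.22, adjusted p = 0.290, and 0.0418 with the block). The microtubule bundling genes Nusap1 and Prc1 differed least within this role. Nusap1 was at 61.4, 83.8 and 82.04 in Itpkb-/- and 42.5, 62.9 and 66.5 in wild type (log2 difference 0.41, SE 0.20, adjusted p = 0.362, and 0.0658 with the block). Prc1 was at 41.8, 64.6 and 61.6 in Itpkb-/- and 32.6, 47.7 and 46.5 in wild type (log2 difference 0.39, SE 0.21, adjusted p = 0.415, and 0.107 with the block). In both, Itpkb-/- library 1 lay below wild-type libraries 2 and 3.

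Of the 2 genes that act in mitotic exit, 0 passed with limma, edgeR or DESeq2 (1 of 2 at an unadjusted p under 0.05 in each) and 1 with the block. Cdc20, the activator of the anaphase promoting complex at anaphase, was at 28.5, 61.2 and 56.5 normalized CPM across Itpkb-/- libraries 1 to 3 and 16.2, 34.1 and 33.7 across the wild-type ones. Library 1 was the lowest of each genotype, and the 3 pairs differed by similar amounts, 0.78, 0.83 and 0.73 (log2 difference 0.78, SE 0.33, adjusted p = 0.291, and 0.00905 with the block). Ube2c, the ubiquitin-conjugating enzyme that works with this ligase, was at 75.4, 109 and 74.2 in Itpkb-/- and 55.5, 71.1 and 74.8 in wild type. Itpkb-/- library 2 stood clear of the wild-type libraries, and Itpkb-/- libraries 1 and 3 were close to wild-type library 3 (log2 difference 0.34, SE 0.19, adjusted p = 0.415, and 0.151 with the block).

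Among the genes of chromosome structure the median log2 difference was 0.55, and 0 of 5 passed with limma or edgeR (2 of 5 at an unadjusted p under 0.05 in either), 2 with DESeq2 and 4 with the block. Top2a, the topoisomerase that untangles sister chromatids, was at 312, 569.98 and 473 normalized CPM across Itpkb-/- libraries 1 to 3 and 249, 311 and 322 across the wild-type ones. Itpkb-/- library 1 lay just above wild-type library 2 and below wild-type library 3, and each pair differed in the same direction (log2 difference 0.58, SE 0.20, adjusted p = 0.190, and 0.00347 with the block). Hmgb2, a chromatin protein of dividing cells, was at 277, 462 and 351 in Itpkb-/- and 202, 298 and 239 in wild type. Wild-type library 2 exceeded Itpkb-/- library 1, so the groups overlapped there (log2 difference 0.55, SE 0.19, adjusted p = 0.204, and 0.00207 with the block). Smc2 and Smc4 form the core of condensin, which compacts chromosomes. Smc2 was at 80.4, 179 and 149 in Itpkb-/- and 80.1, 125 and 112 in wild type, with library 1 nearly equal in the 2 genotypes (log2 difference 0.31, SE 0.27, adjusted p = 0.635, and 0.136 with the block). Smc4 was at 98.5, 309.9 and 296 in Itpkb-/- and 114, 229 and 215 in wild type, with library 1 lower in Itpkb-/- than in wild type (log2 difference 0.23, SE 0.39, adjusted p = 0.844, and 0.302 with the block). The log2 difference of Smc4 was below 0 without Itpkb-/- library 2, Itpkb-/- library 3 or wild-type library 1.

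Mki67 encodes Ki-67, which coats mitotic chromosomes and is the usual marker of proliferating cells. It was at 202, 1103 and 840.1 normalized CPM across Itpkb-/- libraries 1 to 3 and 144, 549 and 535 across the wild-type ones. Library 1 was the lowest of each genotype by a wide margin, so that Itpkb-/- library 1 lay below wild-type libraries 2 and 3. The pairs differed by 0.49, 1.01 and 0.65 on the log2 scale. The difference between genotypes was 0.71 (SE 0.60, limma, adjusted p = 0.629), and with the block it had the smallest adjusted p of the 34 (0.000718). Without Itpkb-/- library 2 it was 0.24.

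**Figure D4:**
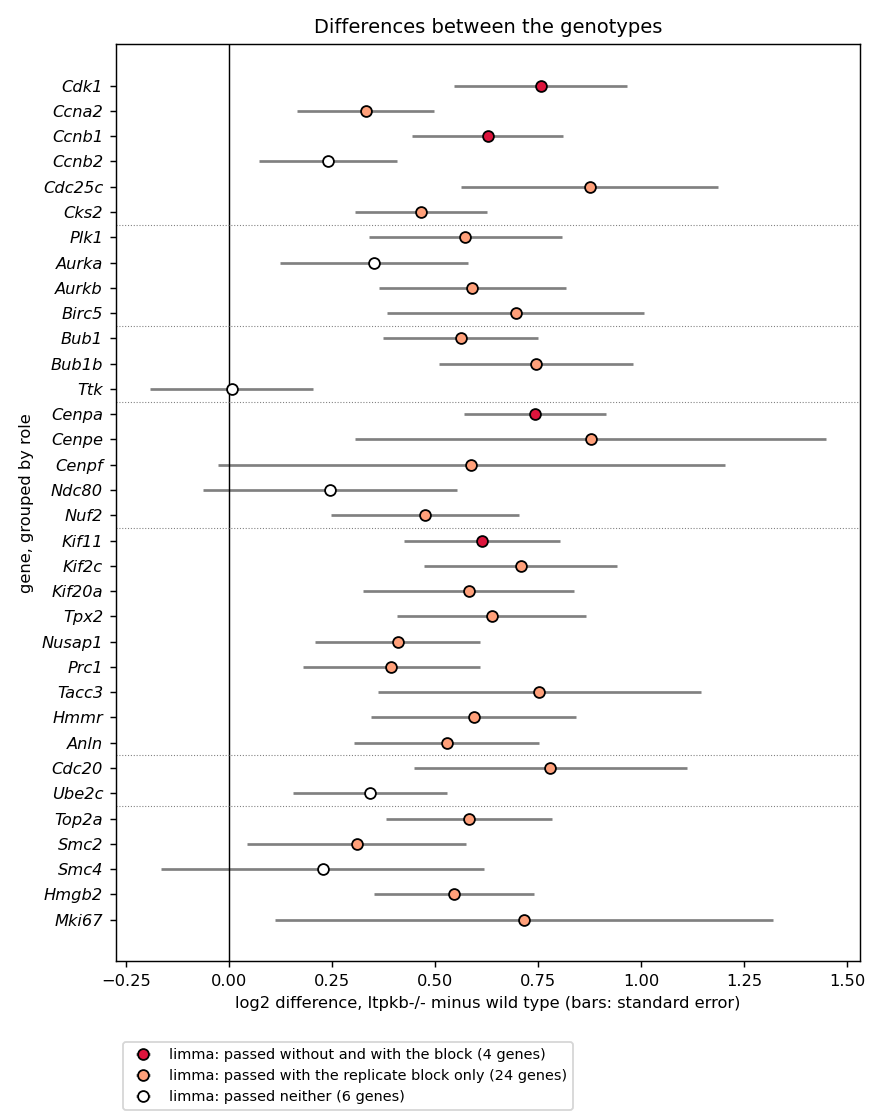
Log2 difference between genotypes, Itpkb-/- minus wild type, for the 34 genes grouped by role, with standard errors as bars. Filled colours separate, for the limma fits alone, the 4 genes that passed without and with the replicate block, the 24 that passed with the block only and the 6 that passed in neither; all points lie above 0, that of Ttk at 0.0057 and below 0 with no composition factor.

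Compared per length, levels among the members differed widely. In wild type the highest mean levels per kilobase of the principal transcript were those of Hmgb2 (93.7 normalized CPM per kb), Ube2c (69.4), Top2a (56.3), Cks2 (50.5) and Ccnb2 (47.0). The lowest were those of Cdc25c (3.28), Cenpe (3.82) and Cenpf (4.33). The means of Cenpe and Cenpf were lowered by wild-type library 1. It was at 11.9 against 40.8 and 37.98 normalized CPM in Cenpe, and at 13.7 against 74.4 and 56.6 in Cenpf. Exons of Ccna2, Cdc20, Kif20a, Nusap1, Plk1, Prc1, Tacc3 and Ube2c overlap those of a gene on the opposite strand by 53 to 1271 bases in GENCODE M21. Since the library kit does not mark strand, reads in those stretches cannot be assigned to either gene.

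Libraries numbered 1 differed from the others in both genotypes over these genes. In Itpkb-/-, 31 of 34 members were lower in library 1 than the mean of libraries 2 and 3, with a median log2 difference of -0.54, and in wild type 30 of 34 were lower, with a median of -0.39. The medians over all genes were -0.0022 and -0.0090. The largest such differences were those of the genes with the longest transcripts. Mki67 (10061 bases) differed by -2.24 in Itpkb-/- and -1.90 in wild type. Cenpf (11130 bases) differed by -2.02 and -2.17, and Cenpe (7910 bases) by -2.12 and -1.64. Across the 34 genes, which share the libraries and so are not independent, the log2 transcript length and this difference correlated at r = -0.615 (rho = -0.485) in Itpkb-/- and r = -0.623 (rho = -0.504) in wild type. Without these 3 genes the values were r = -0.313 and -0.275 over 31 genes, so much of the relation rested on them. Over 8973 genes with a wild-type mean of at least 10 normalized CPM the same correlations were -0.056 and -0.077. Libraries 1 also held the fewest reads of each genotype, 4777870 and 4024203; the part of depth or RNA quality in this pattern was not tested. Between genotypes the members' log2 differences correlated with length at r = 0.166. With both libraries numbered 1 left out, a setting chosen after the data were seen, 13 members passed as higher (background 2.17%) and 31 had groups that did not overlap, against 23.7% of all genes when 2 libraries are compared with 2.

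**Figure D5:**
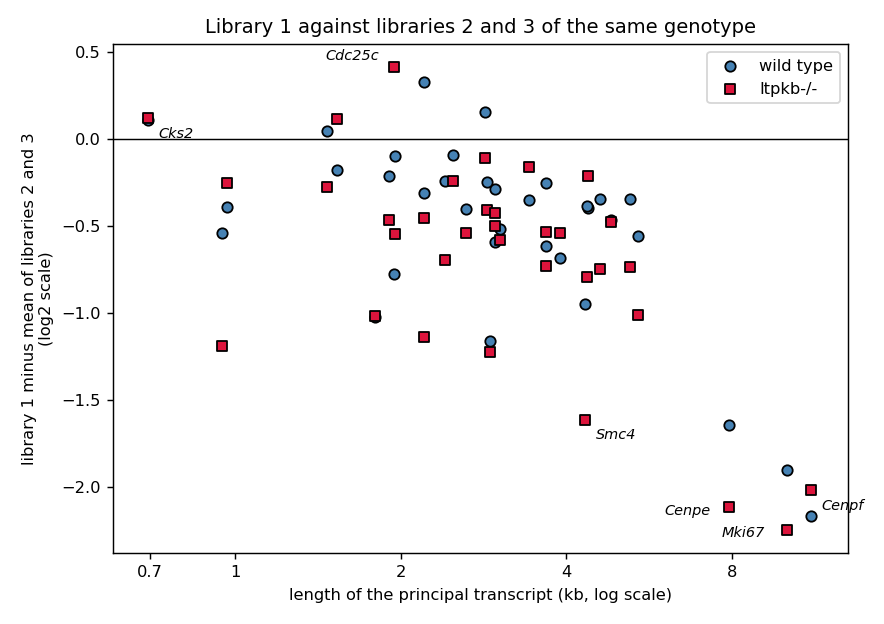
Difference of library 1 from the mean of libraries 2 and 3 (log2 scale) against transcript length (kb, log axis) for the 34 genes in each genotype. Mki67, Cenpf and Cenpe, the 3 longest, lie lowest in both genotypes, and the remaining points scatter between -1.61 and 0.41.

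Other genes of mitosis had a smaller median difference. Of 109 further tested genes of mitosis, 8 rose and 0 fell (limma, against 2.27% and 3.24% of all genes). At an unadjusted p under 0.05, 32 were higher and 1 lower (7.13% and 8.34% of all genes). EdgeR called 10 higher and 0 lower (2.45% and 3.58%), and DESeq2 16 higher and 0 lower (3.24% and 3.57%). With the block 37 passed as higher and 1 as lower (9.15% and 8.97%). Of the 109, 97 had a positive log2 difference (89.0%, against 50.2% of all genes), and the median was 0.35. By role, the medians were 0.73 for the passenger complex and cohesion protectors (5 genes), 0.54 for kinetochore and centromere genes (34), 0.43 for motors, spindle and cytokinesis genes (20), 0.35 for regulators of mitotic entry (13), 0.33 for centriole duplication (6), 0.18 for condensin and cohesin (15) and 0.030 for the anaphase promoting complex and separase (16). The 8 that rose came from all 7 roles. Espl1, or separase, which cuts cohesin at anaphase, had a log2 difference of 0.99 (adjusted p = 0.0616), and Ncapd2, a condensin subunit, 0.54 (0.0777). Plk4, the kinase that starts centriole duplication, differed by 0.61 (0.0837). Gsg2, or haspin, which recruits the passenger complex to centromeres, differed by 0.93 (0.106). Mad2l1, the checkpoint inhibitor of Cdc20, differed by 0.61 (0.130). Mastl, or Greatwall, a kinase that protects the phosphorylation done by Cdk1, differed by 0.99 (0.133). Cit, or citron kinase, of the midbody, differed by 0.86 (0.135). Bora, which helps Aurora A activate Plk1, differed by 0.72 (0.139). None of these 8 calls was kept in all 6 fits without 1 library, and without Itpkb-/- library 2 the number called was 0, as it was without wild-type library 3. It was 19 without Itpkb-/- library 1, 5 without Itpkb-/- library 3, 1 without wild-type library 1 and 2 without wild-type library 2; the shares of all genes called higher in these fits are those given above, from 0.308% to 3.17%. For comparison, 45 S-phase genes had a median of 0.25, with 4 called higher and 0 lower by limma (2.27% and 3.24% of all genes) and by edgeR (2.45% and 3.58%). At an unadjusted p under 0.05, 12 were higher with limma and 11 with edgeR, and 0 lower with either. DESeq2 called 7 higher and 0 lower (3.24% and 3.57%), and 17 passed as higher with the block (9.15%). The differences between these medians were not tested.

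Transcription factors known to act on these promoters were measured as well. Foxm1 and Mybl2 encode the activators FoxM1 and B-Myb. Foxm1 was at 34.2, 47.4 and 44.3 normalized CPM across Itpkb-/- libraries 1 to 3 and 17.7, 33.8 and 32.2 across the wild-type ones. All 3 Itpkb-/- libraries lay above all wild-type libraries, and wild-type library 1 was the lowest (log2 difference 0.61, SE 0.25, adjusted p = 0.275, and 0.0423 with the block). Mybl2 was at 33.5, 75.2 and 32.4 in Itpkb-/- and 20.6, 27.4 and 26.4 in wild type. The groups did not overlap, and Itpkb-/- library 2 stood far above the rest (log2 difference 0.79, SE 0.30, adjusted p = 0.222, and 0.0290 with the block). Without the block neither passed with limma or edgeR. With DESeq2 Mybl2 passed (adjusted p = 0.0794) and Foxm1 did not (0.275). Nfya, listed with the activators, went the other way, at 181, 178 and 192 in Itpkb-/- and 224, 241 and 217 in wild type. Its log2 difference was -0.30 (SE 0.12, limma, adjusted p = 0.241, and 0.070 with the block). Nfyb and Nfyc, of the same list, differed by 0.12 and 0.25 and passed in neither limma fit. Of 16 genes of these factors and of the DREAM and MuvB complexes, 1 rose and 1 fell with limma (background 2.27% and 3.24%) and with edgeR (2.45% and 3.58%). DESeq2 called 2 higher and 1 lower (3.24% and 3.57%), and with the block 3 passed as higher and 2 as lower (9.15% and 8.97%). Tfdp1, the dimerisation partner of E2F factors, was at 134, 166 and 116 in Itpkb-/- and 95.99, 84.9 and 95.3 in wild type. The groups did not overlap (log2 difference 0.57, SE 0.15, adjusted p = 0.106), and the call was lost without Itpkb-/- library 2 (0.300) or wild-type library 1, 2 or 3 (0.201, 0.258 and 0.302). Rbl2, or p130, the pocket protein of DREAM in quiescent cells, was at 108, 121 and 123 in Itpkb-/- and 153, 172 and 153 in wild type. All wild-type libraries lay above all Itpkb-/- libraries (log2 difference -0.44, SE 0.13, adjusted p = 0.124), and the call was lost whichever of the 6 libraries was left out, with adjusted p from 0.153 to 0.330.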

How the data were processed

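The deposited table holds a signal per gene in 6 libraries: each library's gene counts, which the authors scaled by a single factor. It is called normalized CPM here. Per the submitters' processing notes the tools were CASAVA 1.8.2, cutadapt, TopHat2 2.0.8b (build mm10), Partek and edgeR, while the series design text gives TopHat 1.4.1; no source used here says which of them made the table. Libraries were made with the NuGEN Ovation kit, per the labels' protocols; this kit does not mark strand.

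Dividing by the value of 1 read recovered whole reads for 100% of the values (tolerance 0.01 read), and TMM factors recomputed from the recovered reads differed from the authors' by at most 4.83e-06. The test was limma 3.58.1 (R 4.3.3) on log2(value + 1), with a trend of the variance on the mean, adjusted by the Benjamini-Hochberg method over 12008 genes and called at 0.15 or less. It called 272 genes higher and 389 lower, and 182 at 0.05 or less. On this log2 scale with a pseudocount of 1, the change of low genes is understated. On the recovered reads robust edgeR 4.0.16 called 281 of 11486 genes higher, and DESeq2 1.42.0 called 420 of 12952 higher. The limma fit without the block was tested on simulated counts, drawn independently for each library. The block fits, edgeR and DESeq2 were not tested in this way.

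The members, the other gene lists and the tests were chosen with earlier results of these data known. Named genes are all members, Itpkb, Foxm1, Mybl2, called genes of the transcription list, at most 12 called genes of the other mitosis list, and marker genes among the 3 most abundant of their list. Pax5, Cd3g, Cd8a, Lepr, Plac8, Cd53, Cd34, Cd48, Flt3, Elane, Prtn3, Ctsg, Ms4a3, Nfya, Nfyb and Nfyc were named after their values were seen. Hbb-b2 and Hbb-bt held identical values and were counted once. Positions and lengths are from GENCODE M21. The titles number the libraries of both genotypes; after subtracting genotype means, libraries of the same number had correlations of 0.296, 0.268 and 0.284, and all others -0.048 or lower, so the numbers were taken as pairs. Centring on genotype means makes part of that contrast arithmetic, and the labels do not give the meaning of the numbers. No library repeated another of its genotype (chi-square of 5.93 to 25.2 for each degree of freedom). No column was left without a sample. Alternatives were other pseudocounts, filters, scalings, tests and sets of libraries.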

Additional observations from a re-analysis of the deposited data

How the results depend on the processing

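The members' median log2 difference, 0.58 in the main fit, ranged from 0.34 without knockout replicate 2 to 0.75 without knockout replicate 1. Each alternative moved it by less than the spread between libraries (0.40). That spread is large beside the median itself, so this is a lenient limit and does not show that the median is stable. Under each alternative 0 members were called lower. The count of members called higher was 4 in the main fit, where 272 of all 12008 genes were. The number of all genes called higher follows in brackets. The count was 3 at a pseudocount of 0.5 (266 of 12008) and 4 at 2 (268 of 12008). With genes above a mean log2 CPM of 4 it was 3 (168 of 7941). With DESeq2 size factors it was 5 (280 of 12008) and with edgeR 6 (281 of 11486). It was 1 with no filter (174 of 15599), 2 with no composition factor (200 of 12008), 11 with DESeq2 (420 of 12952) and 0 at an adjusted p of 0.05 or less. Leaving out 1 library gave 0 to 20. With the replicate block, which pairs libraries of the same number, 28 were called (1099 of 12008). Without both libraries numbered 2 the count was 0 (64 of 12008), and 15 in the block fit (782 of 12008). At an unadjusted p under 0.05, 7 members were higher without both libraries numbered 2 and without the block. The share of all genes at that unadjusted limit is not given for this fit. Without both numbered 1 the count was 13 (260 of 12008), and 27 in the block fit (938 of 12008). These block fits and the fit without libraries 1 were chosen after the data were seen. Members with groups that did not overlap (12, against 10.0% of all genes) numbered 31 without both libraries numbered 1 (23.7%) and 12 to 31 with 1 library left out (13.4% to 18.4%). Other mitosis genes called higher (8) were 3 with no filter, 5 above a mean log2 CPM of 4, 4 with no composition factor, 16 with DESeq2, 37 with the replicate block, 0 without both libraries numbered 2, 25 and 34 in the block fits without libraries 2 and 1, 0 at 0.05, and 0 to 19 with 1 library left out. The numbers or shares of all genes called higher are those given above for the same fits, except at 0.05, where 182 were called in either direction. Over all genes 661 were called, 349 above a mean log2 CPM of 4, 2176 with the block, 139 without both libraries numbered 2, 1623 and 1794 in the block fits without libraries 2 and 1, 182 at 0.05, and 74 to 837 with 1 library left out. Of the members, 4 changed sign. Ttk was at -0.029 with no composition factor and -0.022 without both libraries numbered 2, block or not. With 1 library left out, Ttk ranged from -0.081 to 0.14, Cenpf from -0.13 to 1.26, Ndc80 from -0.039 to 0.62 and Smc4 from -0.089 to 0.76; Ttk (-0.081, -0.044) and Smc4 (-0.058, -0.025) were negative without Itpkb-/- library 2 or 3, Ndc80 without Itpkb-/- library 2, and Ttk (-0.077), Cenpf and Smc4 without wild-type library 1. The cause of these changes was not tested. Depth set few limits here, since the lowest member reading was 16 reads; 3 libraries per genotype limit the precision.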
